A study of Mus musculus with 4 samples.

Results

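The genes described here are 10 extracellular proteins outside the collagen family that are widely measured in studies of scarring: Smoc2, Fn1, Postn, Dcn, Sparc, Tnc, Fbln5, Ctgf, Cyr61 and Sfrp1. They were chosen by symbol, with earlier results of these data known, and all 10 were found among the 27998 genes listed in each of 4 count matrices. The matrices come from single-nucleus RNA sequencing of flash-frozen kidneys of C57BL/6 mice at postnatal week 22, of which 2 libraries are labelled untreated and 2 losartan, a drug that blocks the type 1 receptor of angiotensin II. The labels name no allele, disease model or other agent, and no dose, route or length of treatment. Nor do they say that the 2 libraries of a group came from separate animals, so the p-values measure only the spread between these libraries, part of which may be technical.

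Matricellular proteins are secreted into the extracellular matrix, where they act less as building material than as signals that alter how cells adhere, move and respond to growth factors. Fibronectin (Fn1), tenascin C (Tnc), periostin (Postn), SPARC (Sparc) and SMOC2 (Smoc2) bind collagens, integrins or growth factors, while decorin (Dcn) coats collagen fibrils and fibulin 5 (Fbln5) helps to assemble elastic fibres. Ctgf and Cyr61, also called Ccn2 and Ccn1, belong to the CCN family and are classic targets of TGF-beta signalling and of the coactivators YAP and TAZ, and Sfrp1 binds Wnt ligands outside the cell. In the kidney, interstitial fibroblasts and the mural cells of vessels and glomeruli are the main makers of matrix, and angiotensin II is known to raise TGF-beta and several of these genes.

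For 3 members that were most abundant in a class other than fibroblasts, the RefSeq sequence of the 250 bases before the start of transcription is shown, because these windows lie next to the genes whose class pattern differs from that of the rest. The RefSeq promoter table, on build GRCm38.p6, held an entry for 5 of the 10 members, Postn, Sparc, Tnc, Fbln5 and Cyr61. Each sequence runs 5′ to 3′ on the strand of its gene, and capitals mark a match to GGAATG or its reverse complement, the core bound by TEAD factors, or to TATAAA, the TATA box.
Cyr61, minus strand, chr3:145649986-145650235: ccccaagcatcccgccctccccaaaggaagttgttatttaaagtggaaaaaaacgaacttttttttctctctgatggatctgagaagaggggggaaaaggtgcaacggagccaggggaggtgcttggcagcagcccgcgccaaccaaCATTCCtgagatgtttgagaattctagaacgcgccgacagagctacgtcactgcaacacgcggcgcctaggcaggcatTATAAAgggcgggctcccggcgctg
Tnc, minus strand, chr4:64047016-64047265: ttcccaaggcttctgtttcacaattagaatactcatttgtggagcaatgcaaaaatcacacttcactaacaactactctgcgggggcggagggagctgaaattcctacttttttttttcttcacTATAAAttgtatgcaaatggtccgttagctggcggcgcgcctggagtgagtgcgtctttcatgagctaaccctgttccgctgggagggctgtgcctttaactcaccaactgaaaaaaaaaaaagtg
Postn, plus strand, chr3:54360857-54361106: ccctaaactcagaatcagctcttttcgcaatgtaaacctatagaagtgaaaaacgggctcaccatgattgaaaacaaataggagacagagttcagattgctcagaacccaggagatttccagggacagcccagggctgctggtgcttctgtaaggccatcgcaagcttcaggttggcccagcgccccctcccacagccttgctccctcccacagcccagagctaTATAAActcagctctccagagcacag
The Cyr61 window held a TEAD core, read on the opposite strand, whose first base lies at -103 from the start and a TATAAA at -25. The Tnc window, at the upstream of that gene's 2 listed starts, held TATAAA at -126, and from the other start the same letters lie at -205. The Postn window, at the downstream of that gene's 2 listed starts, held TATAAA at -26. At the upstream Postn start the window held neither motif. None of the 3 windows shown held TGANTCA, the AP-1 motif, and the windows of Sparc and Fbln5 held none of the 3 motifs. Among all 32841 promoters of the same length, 12.64% held GGAATG on either strand, 7.591% held TATAAA on the gene strand and 6.751% held TGANTCA on either strand. A match describes the letters only, and no match says only that these letters are not in this window.

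The genes lie on 8 chromosomes of GRCm38, by GENCODE M21. Smoc2 is at chr17:14279506-14404790, Fn1 at chr1:71585520-71653200, Postn at chr3:54361109-54391037 and Dcn at chr10:97479609-97518143. Sparc lies at chr11:55394500-55423183, Tnc at chr4:63959785-64047015, Fbln5 at chr12:101746565-101819055, Ctgf at chr10:24595442-24598683, Cyr61 at chr3:145646976-145649981 and Sfrp1 at chr8:23411502-23449632. Whether counting took account of strand is not given in the sources used here, so reads of Fn1 cannot be told apart from those of the antisense gene Apol7d. Smoc2, Tnc and Ctgf each overlap an opposite-strand transcript as well.

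The libraries held between 42290414 and 59078762 UMIs (unique molecular identifiers, 1 per captured RNA molecule), and 36003 of 39654 nuclei were kept. Nuclei were clustered without the 10 genes and named from marker genes, which gave 18 classes. Among them were 3044 fibroblast, 485 mural (with mesangial and renin cells), 569 podocyte, 284 parietal epithelial and 12912 proximal tubule nuclei. Of the 9 fibroblast markers, all were detected in every library, and the 8 podocyte markers summed to between 82710 and 86170 CPM (counts-per-million, UMIs scaled by the total of a class and library) in podocyte nuclei. Of the 36003 kept nuclei, 3019 lay in clusters that could not be named. Some groups of nuclei stood apart by library: 1164 of the 1180 nuclei of proximal tubule cluster 27 came from losartan library 1, and adipocytes were found in only 1 library of each treatment. Between 57 and 67 kept barcodes of each library also occurred in another.

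Over the 17 classes that had at least 20 nuclei in each library in which they were found, 6 of the 10 genes had their highest mean level in fibroblasts, 2 in parietal epithelium, 1 in mural nuclei and 1 in the distal convoluted tubule. The 19 Schwann nuclei were too few to enter this order. With them, Sparc (418 CPM from 27 UMIs) and Postn (122 CPM from 9 UMIs) would have been highest in Schwann nuclei. Levels are CPM of the UMIs summed over the nuclei of a class, given as mean ± SD over the 4 libraries of both treatments. They are descriptions without a test, since the classes come from the same nuclei. Counts of 3′-tagged UMIs are not scaled by gene length, so levels are compared between classes and not between genes.

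**Figure D1:**
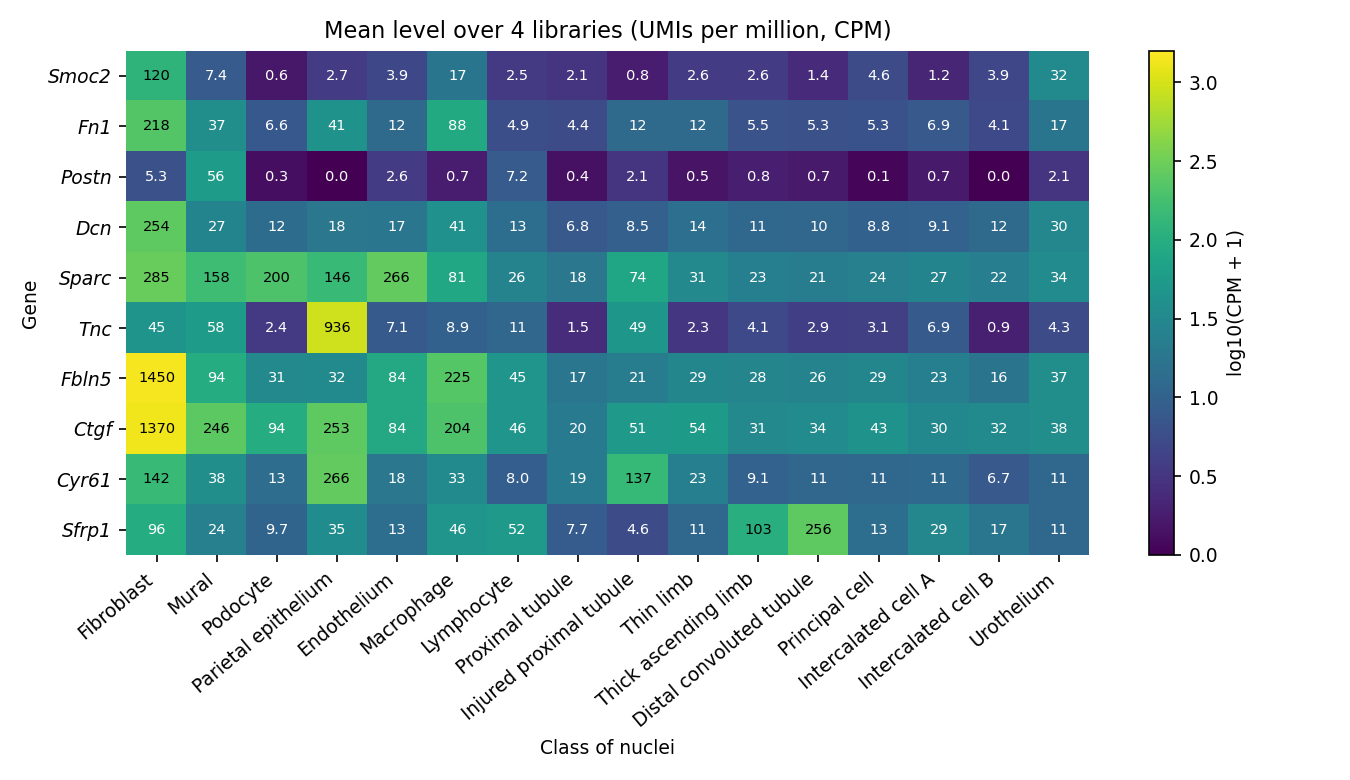
Mean CPM over the libraries for each gene (rows) in 16 classes of nuclei (columns), with colour on a log10 scale and the mean printed in each cell. Fibroblasts hold the highest value in the rows of Smoc2, Fn1, Dcn, Sparc, Fbln5 and Ctgf, whereas Tnc and Cyr61 peak in parietal epithelium, Postn in mural nuclei and Sfrp1 in the distal convoluted tubule.

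Of the adhesive glycoproteins, Fn1 reached 218 ± 65.6 CPM (SD, n = 4) in fibroblasts and 88.0 ± 14.9 in macrophages, the next class, and the library ranges of these 2 classes did not overlap. Smoc2 averaged 120 ± 79.8 CPM in fibroblasts, from 50.5 to 205 across libraries. Its next class, urothelium, averaged 32.3 ± 37.9 CPM from only 24 UMIs, and the ranges of the 2 overlapped. Fibroblasts held 73.8% of the 2245 Smoc2 UMIs of the kidney and 65.6% of the 4576 Fn1 UMIs. In fibroblasts, 17.5% of nuclei had a Smoc2 UMI, against 1.06% of proximal tubule nuclei, whose median depth was 4895 against 3430 UMIs. With every nucleus thinned to 1500 UMIs the shares were 11.0% and 0.356%, and no podocyte nucleus of 569 then held one, which allows a share of up to 0.646% (exact 95% binomial interval, counting error only).

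Sparc, whose protein binds collagen, was found at overlapping levels in several classes. It averaged 285 ± 32.1 CPM (SD, n = 4) in fibroblasts, 266 ± 58.8 in endothelium, 200 ± 82.4 in podocytes, 158 ± 44.2 in mural nuclei and 146 ± 31.2 in parietal epithelium, and each of these classes overlapped the next in range. Fibroblasts held 33.4% of its UMIs and endothelium 18.97%. A Sparc UMI was present in 46.2% of podocyte nuclei, or 26.4% after thinning, against 9.43% and 3.10% of proximal tubule nuclei.

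Tnc was concentrated in the parietal epithelium, the cells that line Bowman's capsule around the glomerulus. Its mean there was 936 ± 437 CPM (SD, n = 4), from 445 to 1320 across libraries, and no library of another class reached that range. Mural nuclei followed at 58.5 ± 52.3 CPM, injured proximal tubule at 48.6 ± 21.1 and fibroblasts at 44.6 ± 29.7, and these 3 overlapped. The 284 parietal nuclei carried 43.0% of all 2793 Tnc UMIs. A Tnc UMI was found in 69.7% of them, and in 1.05% of podocyte nuclei and 0.821% of proximal tubule nuclei. After thinning the 3 shares were 53.2%, 0.527% and 0.186%.

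Postn was low in number, with 361 UMIs in all kept nuclei, and mural nuclei held 39.9% of them and fibroblasts 23.3%. In mural nuclei its CPM was 14.0 and 116 in the untreated libraries and 37.5 and 58.0 in the losartan libraries. Untreated library 2 thus held the highest level and untreated library 1 the lowest, with both losartan libraries between them. In fibroblasts, 71 of the 84 Postn UMIs also came from untreated library 2, and the mean was 5.27 ± 7.51 CPM (SD, n = 4). A Postn UMI was present in 10.5% of mural nuclei, 1.15% of fibroblast nuclei and 0.178% of proximal tubule nuclei, and in 7.42%, 0.493% and 0.0542% after thinning. Parietal nuclei held none, which allows up to between 7.63 and 17.3 CPM in a single library by exact Poisson limits.

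Of the genes that shape fibres, Dcn averaged 254 ± 98.9 CPM (SD, n = 4) in fibroblasts and 40.6 ± 18.5 in macrophages, the next class. Fbln5 averaged 1450 ± 344 CPM in fibroblasts and 225 ± 134 in macrophages. For neither gene did the fibroblast range meet that of another class. Fibroblasts held 63.3% of the 5559 Dcn UMIs and 74.4% of the 24284 Fbln5 UMIs. A Fbln5 UMI was found in 81.0% of fibroblast nuclei and 9.36% of proximal tubule nuclei, or 67.8% and 3.21% after thinning. The 9 fibroblast markers summed to between 5.43% and 28.6% of their fibroblast level in macrophage nuclei, so fibroblast RNA was measured there as well, and its part in the macrophage values was not tested.

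The CCN genes differed in pattern. Ctgf averaged 1370 ± 332 CPM (SD, n = 4) in fibroblasts, well above parietal epithelium at 253 ± 98.2, mural nuclei at 246 ± 21.8 and macrophages at 204 ± 141, which overlapped one another. Adipocytes, found in 2 libraries, averaged 97.5 CPM and podocytes 94.2 ± 53.0 CPM, and fibroblasts held 70.1% of the 25723 Ctgf UMIs. Cyr61 instead was highest in parietal epithelium, at 267 ± 25.7 CPM, above the whole range of fibroblasts at 143 ± 66.4 and of injured proximal tubule at 137 ± 58.0, which overlapped. Its UMIs were spread, with 29.1% in fibroblasts, 24.4% in proximal tubule, 17.6% in injured proximal tubule and 5.68% in the far fewer parietal nuclei. A Cyr61 UMI was seen in 36.6% of parietal, 32.5% of injured proximal tubule and 7.86% of proximal tubule nuclei, or 22.9%, 15.5% and 2.61% after thinning.

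Sfrp1, the Wnt-binding protein, was the only member led by a tubule class. The distal convoluted tubule, the segment where the thiazide-sensitive transporter reabsorbs salt, averaged 256 ± 26.1 CPM (SD, n = 4), from 230 to 292, above every library of the thick ascending limb at 103 ± 22.0 and of fibroblasts at 95.6 ± 37.9. Distal convoluted tubule nuclei held 36.7% of the 7773 Sfrp1 UMIs, thick ascending limb 21.2% and fibroblasts 16.6%. A Sfrp1 UMI was present in 46.0% of distal convoluted tubule nuclei and 3.90% of proximal tubule nuclei, or 26.4% and 1.12% after thinning.

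The genes whose class means followed each member most closely were found by Pearson's r over 16 classes among 13974 genes, as a description with no p. For Smoc2 they were Hcar1 (r = 0.97), Clca3a1 and Gm12426 (both 0.95). Fn1 was followed by Lama2 and Clmp at 0.96 and RP23-474J16.2 at 0.95, and Dcn by Tmem45a at 0.98 and C7 and Gria4 at 0.97. The profile most like that of Postn was Tbx18 at 0.97, followed by Serpini1 at 0.96 and the renin gene Ren1 at 0.95. Tnc was followed by Flnc (0.96), Vit (0.92) and 3100003L05Rik (0.91), Cyr61 by Gxylt2 and C3 (both 0.94) and Medag (0.92), and Ctgf by Vstm4 and Ptgis (both 0.97) and Serping1 (0.96). Fbln5 was followed by Gm10600, Gabra3 and Mgp, all at 0.98, and Sparc by Msrb3 (0.96), Ptpn12 (0.94) and Lix1l (0.93). The closest genes to Sfrp1 reached less, with Hccs at 0.87 and the metallothioneins Mt2 and Mt1 at 0.86. Among the members themselves, Fbln5 and Dcn were most alike at 0.95 and Sparc and Sfrp1 least at -0.07.

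Fibroblast nuclei fell into 2 clusters, numbered 15 with 627 nuclei and 26 with 2417. Cluster 15 was led by 6530403H02Rik, Cntn1, Kcnd2 and the tenascin Tnn, with Smoc2 among its leading genes. The members differed between the clusters in both directions. Smoc2 averaged 368 CPM in cluster 15 and 62.9 in cluster 26, Tnc 183 and 12.96, and Sfrp1 162 and 81.6. Fbln5 averaged 449 CPM in cluster 15 and 1646 in cluster 26, Ctgf 497 and 1554, Sparc 147 and 315 and Fn1 116 and 241. Sfrp1, Dcn, Cyr61 and Postn overlapped in range between the clusters. Cluster 15 made up 20.7% and 25.4% of fibroblast nuclei in the untreated libraries and 14.7% and 18.5% in the losartan libraries. Because the clusters were made from these nuclei, these differences are a description.

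**Figure D2:**
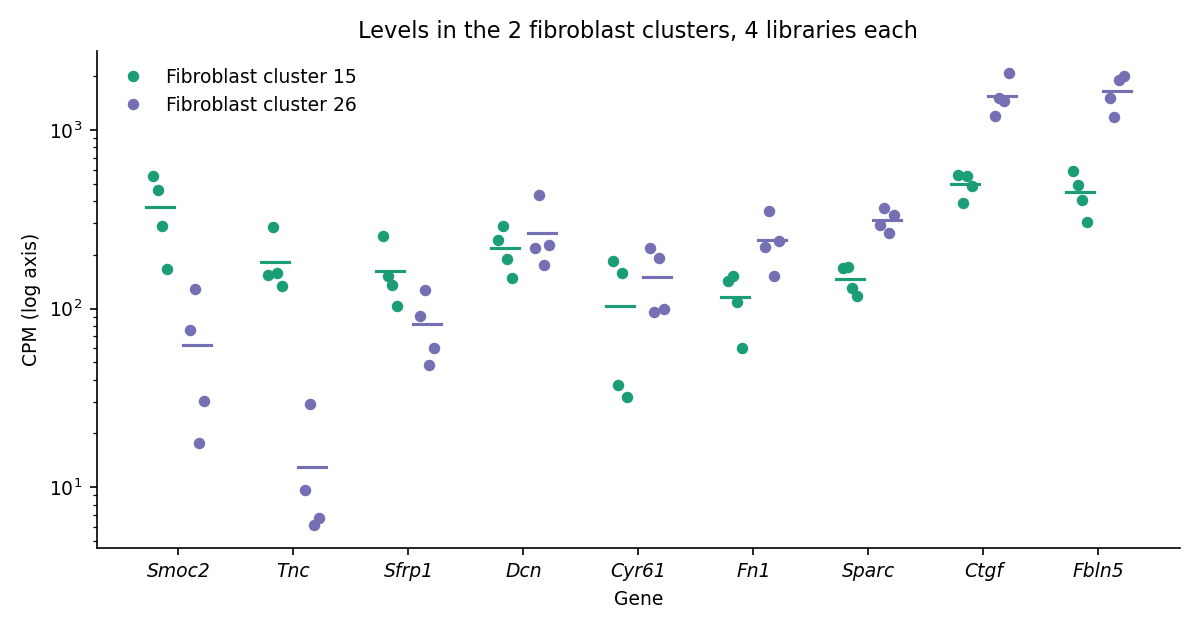
CPM on a log axis for 9 members in fibroblast cluster 15 and cluster 26, with 1 point per library and a line at the mean of 4 libraries. Every point of cluster 15 lies above those of cluster 26 for Smoc2 and Tnc and below them for Sparc, Ctgf and Fbln5.

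Losartan was compared with no treatment in each class on UMIs summed per library, by the quasi-likelihood test of edgeR with p-values adjusted over all genes tested in the class. Values below are CPM after TMM normalisation, given for untreated libraries 1 and 2 and then losartan libraries 1 and 2, and a gene was called at an adjusted p under 0.05. Of 98 tests of a member in a class, 2 were called, Smoc2 in fibroblasts and Ctgf in podocytes, against 0.408% of all 152546 tests of a gene in the same classes.

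Smoc2, a calcium-binding relative of SPARC, fell in fibroblasts. It was at 173 and 203 CPM in the untreated libraries and at 53.9 and 50.8 in the losartan libraries. Both losartan libraries lay below both untreated libraries. The log2 difference was -1.85 (SE 0.15), with an edgeR adjusted p of 0.0255. It rested on 483, 881, 90 and 204 UMIs. The share of fibroblast nuclei with a Smoc2 UMI, thinned to 1500 UMIs, was 13.1% and 16.3% in the untreated and 6.03% and 6.14% in the losartan libraries. Without thinning the shares were 20.1%, 25.8%, 9.48% and 10.8%. In proximal tubule nuclei the thinned share was between 0.203% and 0.593%.

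Over all 13000 genes tested in fibroblasts, 3 were called, or 0.0231%, and 9 of the 10 members passed the filter on low counts, Postn being too sparse. Besides Smoc2, Sfrp1 was at 125 and 132 CPM untreated and 60.5 and 66.7 with losartan. Those groups did not overlap, and the log2 difference was -1.01 (SE 0.14, edgeR adjusted p 0.0998). Tnc was at 39.0 and 87.4 CPM untreated and 26.3 and 25.6 with losartan (log2 -1.30, adjusted p 0.312). Dcn was at 227 and 395 CPM untreated and 179 and 217 with losartan (log2 -0.65, adjusted p 0.508). Neither Tnc nor Dcn overlapped between the groups, but the 2 untreated libraries lay far apart for both. Fn1 was at 208, 302, 148 and 214 CPM, with overlap (log2 -0.48, adjusted p 0.614).

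Fbln5 and Ctgf, the members with the most fibroblast UMIs, had higher values in both losartan libraries. Fbln5 was at 1344 and 1009 CPM untreated and 1727 and 1753 with losartan (log2 0.57, SE 0.16, edgeR adjusted p 0.324). Ctgf was at 1080 and 1234 CPM untreated and 1345 and 1847 with losartan (log2 0.47, SE 0.18, adjusted p 0.502). Neither gene passed the threshold. Cyr61 was at 214, 81.4, 189 and 89.6 CPM and followed the library number rather than the treatment, with the number 1 libraries high. Sparc was nearly level, at 273, 316, 251 and 304 CPM (log2 -0.08).

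Among the members tested in fibroblasts, 4 lay below in both losartan libraries and 2 above, against 19.4% and 19.7% of all genes tested. An unadjusted p under 0.05 was reached by 6 of the 9, against 8.82% of all genes. This is a description only, because the members were chosen with earlier results of these data known. Their median log2 difference was -0.48, and that of all genes 0.01. The 10 proximal tubule markers summed to 1059 and 564 CPM in untreated and 1810 and 1280 in losartan fibroblast nuclei, so tubule RNA was higher in both losartan libraries. Of the 9 fibroblast markers themselves, 6 were lower in both losartan libraries and 1 higher. Among them C7 was at 1871 and 1955 CPM untreated and 954 and 1355 with losartan, and Abca8a at 1164 and 818 untreated and 1614 and 1443 with losartan. The part of this shift in the members' values was not tested. Smoc2 was at -1.96 on the log2 scale without the 10% of nuclei richest in those markers (adjusted p 0.0148).

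**Figure D3:**
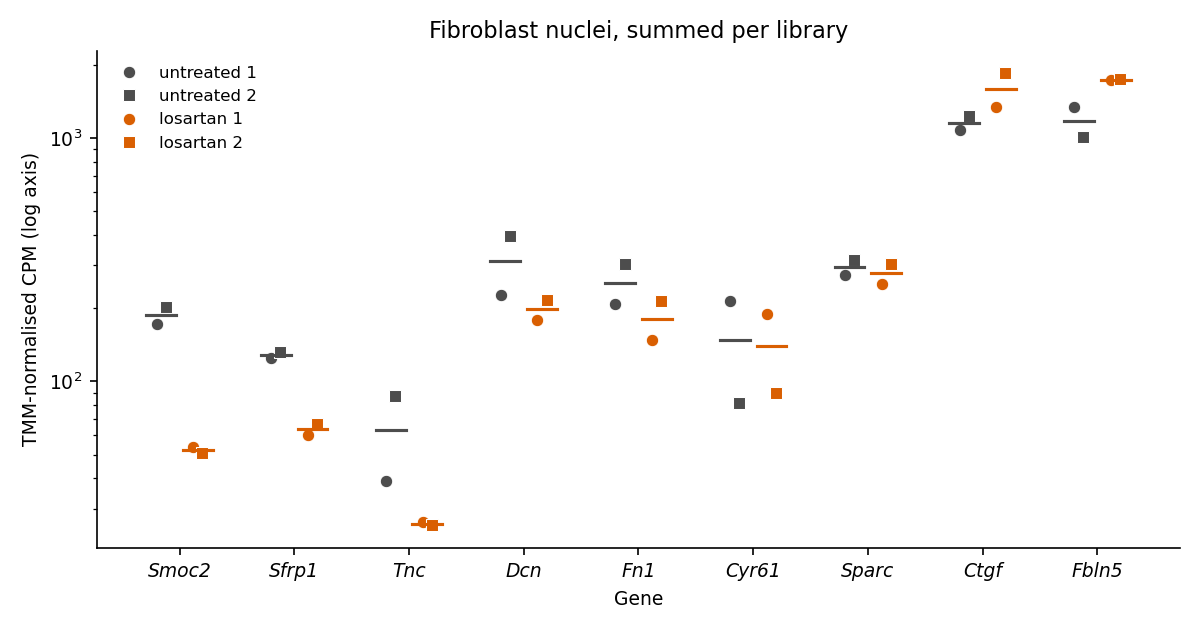
TMM-normalised CPM on a log axis for 9 members in fibroblast nuclei, with 1 point per library and a line at the mean of each group. Smoc2, Sfrp1, Tnc and Dcn have both losartan points below both untreated points, Ctgf and Fbln5 have both above, and only Smoc2 passed the threshold.

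Within the fibroblast clusters, Smoc2 was lower with losartan in each. In cluster 15 it was at 570 and 481 CPM untreated and 305 and 177 with losartan (log2 -1.17, SE 0.27, edgeR adjusted p 0.384), and in cluster 26 at 76.6 and 127 untreated and 17.9 and 30.4 with losartan (log2 -2.02, SE 0.32, adjusted p 0.0997). The groups did not overlap in either cluster, but neither fit passed the threshold, with 0 of 8161 genes (0%) called in cluster 15 and 2 of 12433, or 0.0161%, in cluster 26. Beside the 0 in cluster 15, 479 genes had an unadjusted p under 0.05. Both clusters were thus lower in Smoc2, beside the lower share of cluster 15. Fbln5 had opposite signs in the 2 clusters, at 608, 514, 428 and 322 CPM in cluster 15 and 1534, 1168, 1925 and 2005 CPM in cluster 26, and that difference was not tested. These fits of single clusters were added after the data were seen.

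The fibroblast call for Smoc2 depended on both losartan libraries and on which clusters were counted as fibroblasts. Without losartan library 1 the adjusted p was 0.390 at a log2 difference of -1.89, and without losartan library 2 it was 0.112 at -1.80. Clusters 35, whose best marker set was that of fibroblasts, and 19, led like cluster 15 by 6530403H02Rik, did not meet the rules for a name and were left out of the class. Cluster 19 scored best on the proximal tubule markers, with Slco1a1 and Hsd3b2 also among its leading genes. Its median depth was 7432 UMIs, against 3191 in cluster 15. The part of tubule RNA in the joined fit below was not tested. Clusters 35 and 19 held 26 and 11 nuclei in untreated library 1, 10 and 8 in untreated library 2, 72 and 73 in losartan library 1 and 53 and 35 in losartan library 2. With both joined to the fibroblasts, an alternative added after the data were seen, Smoc2 was at -1.94 (SE 0.16, edgeR adjusted p 0.0785), and 0 of 13253 genes were called against 1551 with an unadjusted p under 0.05. In all of the 15 alternatives run for Smoc2 the log2 difference lay between -2.02 and -1.17, and 10 of them passed the threshold. Among those that passed was the minimum of 1000 UMIs, which removed no nucleus and so only repeated the main fit.

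In podocytes, the filtering cells of the glomerulus, Ctgf fell. Its level was 126 and 167 CPM in the untreated libraries and 43.2 and 63.6 in the losartan libraries, so both losartan libraries lay below both untreated ones. The log2 difference was -1.46 (SE 0.28, edgeR adjusted p 0.0439), from 65, 127, 17 and 26 UMIs. In podocytes 18 of 6557 genes were called, or 0.275%, and only Ctgf, Sparc and Fbln5 passed the filter on low counts. Ctgf and Sparc were below in both losartan libraries, as were 18.4% of all genes. The other 7 members had at most 16 UMIs in any podocyte library. The share of podocyte nuclei with a Ctgf UMI was 26.8%, 27.2%, 14.4% and 18.4%, and 17.0%, 13.3%, 7.21% and 12.8% after thinning, against 3.16% to 4.201% of thinned proximal tubule nuclei.

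Fibroblast RNA in podocyte nuclei was gauged by the 9 fibroblast markers, which summed to 254, 213, 203 and 186 CPM there, with 3, 2, 2 and 2 of them at 0. That is 3.85%, 2.97%, 3.62% and 3.07% of their fibroblast level. Podocyte Ctgf was at 11.3% and 12.5% of its fibroblast level in the untreated libraries and at 3.08% and 3.25% in the losartan libraries. With losartan the share of Ctgf was thus close to that of the fibroblast markers, and untreated it was well above. The podocyte markers summed to 82710, 83240, 86170 and 84300 CPM, most of it Magi2, which was higher in both losartan libraries. Of the 8 markers 5 were lower in both, among them Podxl, at 2320 and 3221 CPM untreated and 1635 and 1980 with losartan, and the part of this in the Ctgf result was not tested. Proximal tubule markers in podocyte nuclei were at 1063 and 506 CPM untreated and 1761 and 1407 with losartan, and their part in the result was not tested beyond the fit below.

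Sparc, in podocytes, was at 232 and 327 CPM untreated and 119 and 169 with losartan. The groups did not overlap, and the log2 difference was -0.97 (SE 0.22, edgeR adjusted p 0.113). Unlike Ctgf, it stood far above the fibroblast marker share in every library, at 82.7%, 94.9%, 45.6% and 52.4% of its fibroblast level. That share does not gauge RNA from endothelium, where Sparc averaged 266 CPM against 285 in fibroblasts. The part of endothelial RNA in podocyte Sparc was not tested. Fbln5 was at 48.4, 13.2, 43.2 and 24.5 CPM, with overlap.

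The podocyte call for Ctgf was lost without losartan library 1 (log2 -1.20, adjusted p 0.530), with predicted doublets kept (-1.08, adjusted p 0.512) and without the nuclei richest in proximal tubule markers (-1.42, adjusted p 0.0612). DESeq2 gave no adjusted p for it and an unadjusted p of 0.00155.

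The losartan difference of Ctgf thus pointed down in podocytes and up in fibroblasts, and the difference between these 2 differences was tested in 1 edgeR fit over both classes with the library as a block. It was -1.93 on the log2 scale (SE 0.31, edgeR adjusted p 8.403e-06), and 61 of 11353 genes, or 0.537%, were called in that fit. The fit holds few sums per gene, so this p rests mostly on spread pooled over all genes tested. It does not measure the spread of Ctgf alone. Over 5 alternatives added after the data were seen, 4 of them leaving out a library, the difference lay between -2.01 and -1.83. Under library totals alone the edgeR adjusted p was 0.0001657. The test between classes was not run with doublets kept or without the nuclei richest in proximal tubule markers. Both of those settings ended the podocyte call. Against mural nuclei the Ctgf difference was -1.41 (adjusted p 0.0523, with 41 of 9335 genes or 0.439% called). Sparc differed by -0.88 between podocytes and fibroblasts (adjusted p 0.0786) and by -1.13 between podocytes and mural nuclei (adjusted p 0.166). Of 38 such tests of members over 4 pairs of classes, only that of Ctgf between podocytes and fibroblasts was called, against 0.154% of genes between fibroblasts and mural nuclei and 0.0585% between proximal tubule and thick ascending limb.

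**Figure D4:**
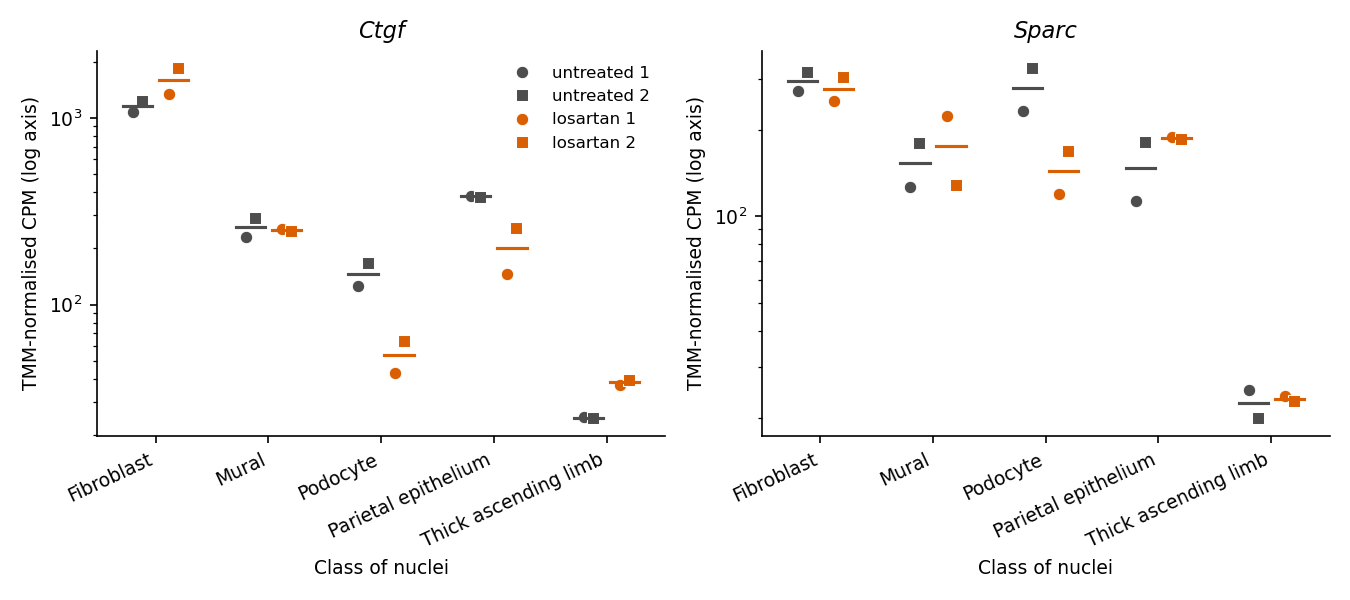
TMM-normalised CPM on log axes for Ctgf (left) and Sparc (right) in 5 classes, with 1 point per library and a line at the mean of each group. In podocytes both losartan points lie below both untreated points for both genes, whereas in fibroblasts the losartan points of Ctgf lie above.

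In mural nuclei 149 of 9071 genes were called, or 1.64%, and 0 of the 9 members tested. Unadjusted, 4 of the 9 had a p under 0.05 by edgeR, and DESeq2 called none, giving 6 of the 9 no adjusted p. Both losartan libraries lay below both untreated ones for 2 members and above for 1, against 23.6% and 23.5% of all genes. Fbln5 was at 90.0 and 43.9 CPM untreated and 119 and 135 with losartan (log2 0.98, edgeR adjusted p 0.152). Cyr61 was at 77.9 and 31.4 CPM untreated and 24.1 and 23.1 with losartan (log2 -1.13, adjusted p 0.257). Fn1 was at 26.8 and 80.0 CPM untreated and 24.1 and 23.1 with losartan (log2 -1.25, adjusted p 0.227). Cyr61 was far higher in untreated library 1 than in untreated library 2, and Fn1 the reverse. Over the alternatives the log2 difference shrank to -0.39 for Cyr61 and to -0.18 for Fn1.

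The mural values of Postn, at 14.6, 122, 38.6 and 59.4 CPM, and of Tnc, at 29.2, 144, 41.9 and 29.7 CPM, were set apart by untreated library 2 alone. For both genes that library was the highest and the other untreated library the lowest, and the log2 difference changed sign without that library, from -0.60 to 1.73 for Postn and from -1.36 to 0.29 for Tnc. Ctgf was nearly level in mural nuclei, at 231, 290, 253 and 248 CPM, and Dcn, Sparc and Sfrp1 overlapped between the groups. Proximal tubule markers summed to 3084, 1561, 4310 and 4892 CPM in mural nuclei, and endothelial markers to 1247, 807, 2071 and 1479 CPM, higher in both losartan libraries than in both untreated ones in each case. Fibroblast markers were at 769 and 1066 CPM untreated and 512 and 504 with losartan. Of the 12 markers of the class itself, which pools vascular mural, mesangial and renin cells, 6 were lower in both losartan libraries and 1 higher. Pdgfrb was at 350 and 380 CPM untreated and 220 and 148 with losartan, Gata3 at 191 and 154 against 82.7 and 90.2, Mcam at 124 and 128 against 65.6 and 62.8, and Rgs5 at 347 and 516 against 885 and 698. The part of these in the mural values was not tested.

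Parietal epithelial nuclei gave 2 called genes of 4958, or 0.0403%, and none of the 5 members that could be tested. By unadjusted p under 0.05, 2 of the 5 passed, Fn1 and Ctgf. Fn1 was at 51.9 and 93.0 CPM untreated and 16.1 and 28.6 with losartan (log2 -1.73, SE 0.53, edgeR adjusted p 0.362). Ctgf was at 382 and 377 CPM untreated and 145 and 257 with losartan (log2 -0.90, SE 0.26, adjusted p 0.312). Both genes had their losartan libraries below the untreated ones, as did 17.3% of all genes, and parietal Ctgf was at 31.4%, 26.2%, 9.51% and 12.3% of its fibroblast level, where the fibroblast markers had a median of 5.41%. The 2 genes that peak in this class did not separate by treatment: Tnc was at 788, 1484, 510 and 1506 CPM, higher in the number 2 libraries, and Cyr61 at 264, 329, 327 and 300 CPM.

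Among tubule classes no member was called. In the thick ascending limb 51 of 13198 genes, or 0.386%, were called. Fbln5 there was at 20.4 and 16.1 CPM untreated and 41.1 and 35.1 with losartan (log2 1.06, SE 0.20, edgeR adjusted p 0.0805), and Ctgf at 24.9 and 24.6 CPM untreated and 37.1 and 39.5 with losartan (log2 0.63, adjusted p 0.198). For both genes the groups did not overlap, as for 19.4% of all genes in that direction. These levels were 1.55% to 2.36% of the fibroblast level for Fbln5 and 2.01% to 2.74% for Ctgf, while the fibroblast markers stood at 1.43% to 2.61% in the same nuclei, and Fbln5 and Ctgf were also the members with higher losartan values in fibroblasts. The part of fibroblast RNA in these values was not tested.

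Sfrp1 in the distal convoluted tubule, its leading class, was at 245 and 292 CPM untreated and 233 and 261 with losartan (log2 -0.12, edgeR adjusted p 0.833, with 30 of 12096 genes or 0.248% called). The groups overlapped, unlike those of Sfrp1 in fibroblasts. Cyr61 in the injured proximal tubule was at 226 and 136 CPM untreated and 86.0 and 111 with losartan (log2 -0.80, adjusted p 0.927, with 3 of 10942 genes or 0.0274% called). Only 37 injured nuclei came from losartan library 1. Cyr61 in the remaining proximal tubule was at 38.5, 13.5, 14.5 and 10.7 CPM, set apart by untreated library 1, in a class where 0 of 15334 genes (0%) were called against 1964 with an unadjusted p under 0.05.

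Macrophage nuclei showed Ctgf at 119 and 66.5 CPM untreated and 282 and 382 with losartan (log2 1.86, SE 0.34, edgeR adjusted p 0.544). The groups did not overlap, as for 19.2% of all genes in that direction, and 0 of 8917 genes were called (0%), against 771 with an unadjusted p under 0.05. The fibroblast markers in these nuclei were at 22.2%, 5.43%, 28.6% and 18.2% of their fibroblast level and Ctgf at 10.7%, 5.09%, 20.1% and 20.2%. The part of fibroblast RNA in the result was not tested. In endothelium, where 0% of genes were called, Sparc was at 281 and 327 CPM untreated and 193 and 273 with losartan (log2 -0.38, adjusted p 0.997).

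Counted by gene over the classes where each could be tested, Smoc2 had a negative log2 difference in 4 of 4 classes, Fn1 in 9 of 10, Cyr61 in 9 of 11 and Tnc in 6 of 7. Fbln5 had a positive one in 12 of 14. Ctgf was divided, negative in 9 of 16 classes, as were Sparc at 6 of 15, Dcn at 5 of 10 and Sfrp1 at 4 of 10. Among all genes tested, 49.1% in fibroblasts and 51.9% in proximal tubule had a negative value. Fibroblast markers were also measured in the other classes, so the classes are not independent. They reached up to 28.6% of their fibroblast level in macrophages and 14.9% in mural nuclei. In the classes not described above the members' count of calls was also 0, with 0% of genes called in lymphocytes, principal cells, thin limb and urothelium, 0.122% in type B and 4.39% in type A intercalated cells.

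Summed over all kept nuclei, no gene of 18410 was called by edgeR (0%), 4038 had an unadjusted p under 0.05, and DESeq2 called 1611. Of the 10 members 0 were called, 3 had an unadjusted p under 0.05, and 5 lay below in both losartan libraries, against 29.1% of all genes. Smoc2 was at 17.5 and 21.0 CPM untreated and 4.204 and 6.81 with losartan (log2 -1.81, SE 0.27, edgeR adjusted p 0.110). Sfrp1 was at 49.6 and 48.9 CPM untreated and 36.0 and 36.1 with losartan (log2 -0.45, SE 0.08, adjusted p 0.113). Both genes kept their groups apart with little spread, and DESeq2 called Smoc2 (adjusted p 1.497e-07). In these whole-kidney sums, fewer cells of a type and less RNA per cell cannot be told apart, and fibroblast nuclei numbered 741 and 943 in the untreated and 464 and 896 in the losartan libraries, with unnamed clusters 35 and 19 left out of these counts.

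Cyr61 was at 56.0 and 28.6 CPM untreated and 23.3 and 19.8 with losartan in the whole kidney (log2 -0.97, edgeR adjusted p 0.191). Fn1 was at 25.4, 37.3, 12.3 and 23.9 CPM (log2 -0.79) and Sparc at 65.3, 78.2, 41.7 and 60.5 CPM (log2 -0.49), each with both losartan libraries lower. The remaining 5 members overlapped: Tnc, Dcn and Postn had log2 differences of -1.13, -0.66 and -0.96, Fbln5 of 0.24 and Ctgf of 0.05.

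**Figure D5:**
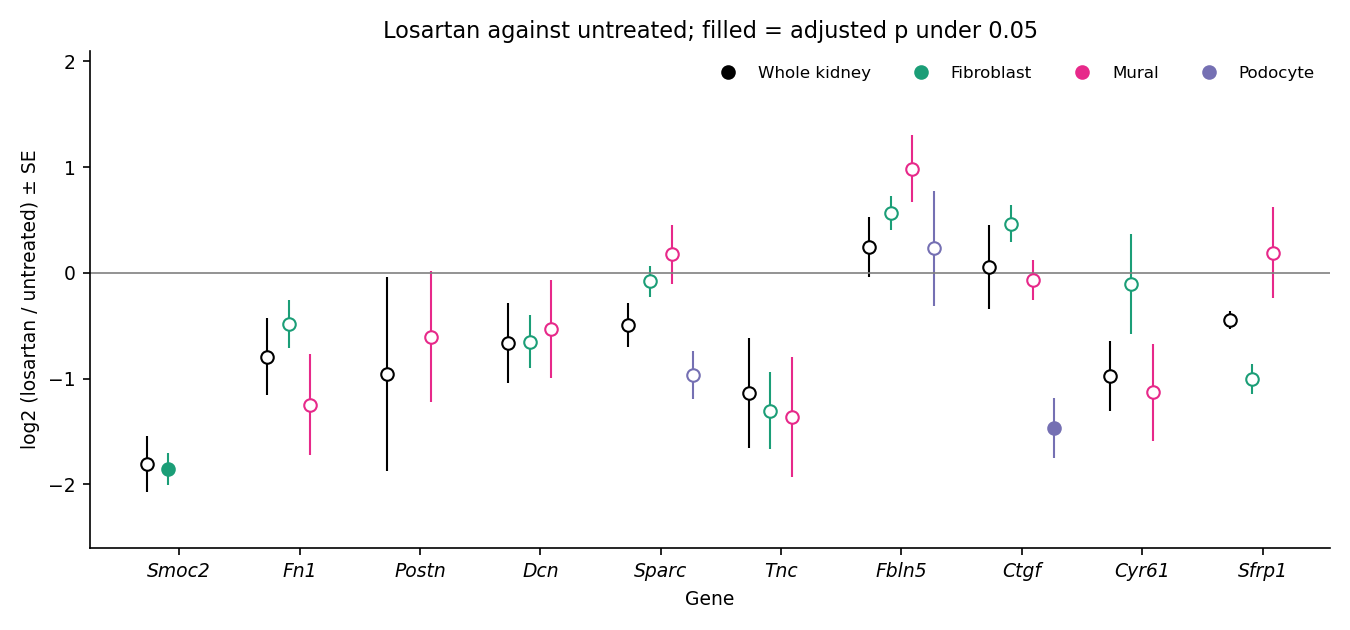
Log2 difference of losartan minus untreated (vertical axis, ± SE of the edgeR fit) for each gene in the whole kidney and in fibroblast, mural and podocyte nuclei, where it could be tested. Filled points mark an adjusted p under 0.05 and are Smoc2 in fibroblasts and Ctgf in podocytes, and the points of Ctgf lie on both sides of 0.

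Relatives of the members were read from lists drawn up with the members. In fibroblasts none of the 5 tested SPARC relatives was called, and Sparcl1, which like Smoc2 shares the calcium-binding domain of SPARC, was at 112 and 98.0 CPM untreated and 43.7 and 52.0 with losartan (log2 -1.12, SE 0.17, edgeR adjusted p 0.0998). In mural nuclei Fstl1, another relative, was at -0.55 (adjusted p 0.269). In fibroblasts all 5 had a negative log2 difference, with a median of -0.48 against 0.01 for all genes. Of 5 tested tenascins and thrombospondins 0 were called, and Tnn was at 55.5 and 111 CPM untreated and 21.5 and 50.5 with losartan (log2 -1.14, adjusted p 0.481) and Thbs2 at -1.14 (adjusted p 0.542). Of the CCN relatives only Wisp1 could be tested in fibroblasts (log2 -0.08). Small leucine-rich proteoglycans were divided: none of 7 was called, with Ogn at 0.58 and Lum at -1.33, and Frzb and Sfrp4, relatives of Sfrp1, were at -0.63 and -0.76.

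Fbln2, a fibulin, rose in mural nuclei, from 9.73 and 3.14 CPM untreated to 41.9 and 52.8 with losartan (log2 2.98, SE 0.52, edgeR adjusted p 0.0317). In that class, where 149 of 9071 genes or 1.64% were called, it was the only 1 of 4 fibulin relatives tested to be called. The untreated values rest on few UMIs: Smoc2, with 16 UMIs in mural nuclei of all 4 libraries, averaged 7.39 CPM there. Of 13 receptors for these proteins tested in mural nuclei, 1 fell, the fibronectin receptor subunit Itga4, from 204 and 213 CPM to 83.7 and 99.0 (log2 -1.19, SE 0.20, adjusted p 0.0279). Leaving out losartan library 1 ended both calls (adjusted p 0.0524 for Fbln2, 0.147 for Itga4), and leaving out losartan library 2 ended that of Fbln2 (0.105). A limit of 5% mitochondrial UMIs also ended the call of Fbln2 (0.0909), and keeping doublets that of Itga4 (0.0503). DESeq2 gave Fbln2 no adjusted p and an unadjusted p of 0.0018. As given above, 6 of 12 markers of this class were lower with losartan as well. In fibroblasts none of the 14 receptors was called, with a median of -0.03.

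Of the 22 TGF-beta signalling genes, 21 were tested in fibroblasts and none was called (Ltbp4, a symbol carried by more than 1 gene, was left out), with 9 below and 1 above in both losartan libraries (19.4% and 19.7% of all genes) and a median of -0.17. In podocytes none of 13 was called. The only call of that list was Pmepa1, an inhibitor of the pathway, which fell in type A intercalated cells (log2 -1.18, adjusted p 0.0475), a class where 4.39% of genes were called. Of the YAP and TAZ targets other than Ctgf and Cyr61, none of 17 was called in fibroblasts (median -0.01) and none of 14 in podocytes (median -0.14). Rbms3 of that list fell in mural nuclei (log2 -0.84, adjusted p 0.03999) and in the thick ascending limb (log2 -0.83, adjusted p 0.0317), and Dock5 rose in type A intercalated cells (log2 1.18, adjusted p 0.0417). The calls of Rbms3 in both classes and of Dock5 were lost without either losartan library, and that of Pmepa1 without losartan library 2, with adjusted p between 0.0747 and 0.938. In type A intercalated cells the number of genes called fell from 358 to 1 without the nuclei richest in proximal tubule markers, and neither Pmepa1 (adjusted p 0.612) nor Dock5 (0.566) was called then or with DESeq2 (0.1598 and 0.435). Dock5 passed the threshold in 6 of 12 alternatives and Pmepa1 in 9.

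Contractile genes of myofibroblasts were not called in fibroblasts in any of 7 tested, with 4 above and 1 below in both losartan libraries (19.7% and 19.4% of all genes) and a median log2 difference of 0.64. The clusters differed in sign: in cluster 15 all 7 had a negative difference, with a median of -0.46, and in cluster 26 the median was 0.76 with 1 negative, a contrast that was not tested. Myl9, the regulatory light chain of smooth muscle myosin, was at 81.6 and 97.5 CPM untreated and 160 and 148 with losartan (log2 0.78, edgeR adjusted p 0.171). Actn1, an actin crosslinker, was at -0.79 in mural nuclei (adjusted p 0.0782). Of the immediate early genes, none of 10 was called in fibroblasts (median 0.21), and Dusp1 rose in type A intercalated cells (log2 1.94, adjusted p 0.0122), a call lost with DESeq2 (adjusted p 0.187) and without the nuclei richest in proximal tubule markers (adjusted p 0.566).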

How the data were processed

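The deposited matrices hold raw UMI counts per gene and nucleus, written by Cell Ranger 5.0.0 per the file headers, and the submitters' processing notes name Bowtie 0.12.2 and mm10 without a role. Nuclei had at least 500 UMIs, 300 genes and at most 10% mitochondrial UMIs. Doublets were removed by Scrublet, at its automatic threshold in untreated library 1 (717 nuclei) and elsewhere as the highest scores at the loading rate. The result was 39 clusters (scanpy 1.11.5, igraph 0.11.9, Leiden) that were named from 25 marker sets; class names mean resemblance to a cell type. Counts summed per class were tested, where each library held 20 nuclei or more, with edgeR 4.0.16 (TMM, filterByExpr, Benjamini-Hochberg) in R 4.3.3. The same fit was also run on counts simulated from these data, with results not given here. Median depth was 3363 to 4230.5 UMIs per nucleus, and intervals cover counting error only. The members and lists were chosen with earlier results of these data known. Named were all members, each list's called genes or else the 2 of smallest p in fibroblast, mural or podocyte nuclei, and 3 genes of like class pattern per member. Alternatives were DESeq2 1.42.0, other filters, scalings and nuclei, a replicate block and leaving out each library.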

Additional observations from a re-analysis of the deposited data

Results flagged for a closer look

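The losartan difference of Ctgf had opposite signs in 2 cell classes of the same libraries. It was -1.46 on the log2 scale in podocytes and 0.47 in fibroblasts, and the test of the difference between them (an interaction term in edgeR with the library as a block) gave -1.93, with an adjusted p of 8.403e-06. The interaction fit took its spread mostly from all genes pooled, so that p does not measure the spread of Ctgf alone. All 4 libraries entered that fit, and both losartan libraries lay below the untreated ones in podocytes and above them in fibroblasts. Of the 2 parts, only the podocyte difference passed the threshold by itself. That call was lost with doublets kept and without the nuclei richest in proximal tubule markers. The interaction was not run in those 2 settings. The podocyte values rest on 65, 127, 17 and 26 Ctgf UMIs, and with losartan they were near the share at which fibroblast markers were measured in podocyte nuclei.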

How the results depend on the processing

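Of 525 alternative values for 43 member and class pairs, 443 kept both direction and side of the threshold, 47 passed it newly, 8 no longer passed and 27 changed sign, 22 of those with a library left out. Each arm then held 1 or 2 libraries and the lone library is assumed to vary like the others. Only Smoc2 in fibroblasts and Ctgf in podocytes were called in the main fit, so only their alternatives could no longer pass. Of these, 10 of 15 still passed for Smoc2 and 8 of 11 for Ctgf. None of 60 class levels moved by more than its SD, but only the setting with doublets kept could have moved them. Leaving out 1 of 4 libraries cannot shift a mean by its SD. No kept nucleus had under 1839 UMIs, so the minimum of 1000 UMIs changed nothing.

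With DESeq2 the members called numbered 3 in the whole kidney (1611 of 23595 genes fitted), 2 in fibroblasts (93 of 19922), 0 in podocytes (14 of 16603) and 1 in the other classes summed. In those other classes DESeq2 called between 0 of 16698 genes (urothelium) and 345 of 21814 (proximal tubule). Without the filter on low counts the members called were 7 in fibroblasts (587 of 19922 genes), 3 in mural nuclei (663 of 17665), 2 in podocytes (99 of 16603) and 2 in the other classes. In those other classes between 4 of 21814 genes (proximal tubule) and 655 of 17189 (type A intercalated cells) were called. With doublets kept, 0 members were called in podocytes (2 of 8205 genes), and 38 of 9520 genes in mural nuclei. Without the nuclei richest in proximal tubule markers, 0 members were called in podocytes (9 of 6202 genes), and 267 of 8460 genes in mural nuclei. With unnamed clusters 19 and 35 joined to fibroblasts, 0 members and 0 genes were called there. At most 5% mitochondrial UMIs gave 58 mural genes, and library totals without TMM gave 28 podocyte genes.

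Leaving out 1 library gave, for all genes, 0 to 23 calls in the whole kidney, 0 to 784 in fibroblasts, 44 to 871 in mural nuclei and 4 to 218 in podocytes. For members it gave 0 to 7 calls in fibroblasts, 0 to 4 in mural nuclei, 0 to 2 in podocytes and 0 to 5 in the other classes summed. The fibroblast calls rose to 784 without untreated library 1 and fell to 0 without either losartan library.

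The replicate block used the number shared by titles, which pairs the libraries in name only. Deviations of same-numbered libraries had a correlation of 0.35 in the whole kidney, 0.23 in fibroblasts, 0.13 in mural nuclei and 0.09 in podocytes. Under the replicate block, members called numbered 7 in the whole kidney (2263 of 18410 genes), 5 in fibroblasts (371 of 13000) and 3 in the other classes. In those other classes between 0 of 6020 genes (urothelium) and 864 of 13198 (thick ascending limb) were called. In mural nuclei 449 of 9071 genes were called.

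These log2 differences changed sign as 1 library was left out. In the whole kidney Postn ran from -1.77 to 1.33, Fbln5 from -0.19 to 0.58 and Ctgf from -0.66 to 0.53, with Ctgf at -0.087 under library totals and -0.056 under the block. In fibroblasts Sparc ran from -0.23 to 0.043, Cyr61 from -0.71 to 0.74, Wisp1 from -0.26 to 0.13 and Sfrp4 from -1.47 to 1.24, and Fbln5 was at -0.60 in cluster 15 alone. In mural nuclei Postn ran from -1.30 to 1.73, Dcn from -0.92 to 0.27, Sparc from -0.26 to 0.52, Tnc from -1.99 to 0.29, Ctgf from -0.20 to 0.11 (0.13 with doublets kept) and Sfrp1 from -0.12 to 0.65 (-0.092 with doublets kept). Fbln5 in podocytes ran from -0.53 to 1.33, parietal Tnc from -1.18 to 0.39, parietal Cyr61 from -0.077 to 0.25 and Sfrp1 in the distal convoluted tubule from -0.23 to 0.014. The cause of these changes was not tested.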
